A study of Mus musculus with 16 samples.

Results

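The comparison described here set all irradiated mouse mammary tumors against all unirradiated ones, and asked which genes differed in the same direction in every irradiated group. Of the 16 libraries, 15 entered it: the 9 tumors whose titles name radiation (RT), and the 6 that were sham-treated or received the inhibitor alone. The internal reference library was left out. The 5 groups of 3 tumors were Sham (labelled Sham/Control; IgG was the control antibody), IPW-5371 alone (TGFbi in the labels), RT, TGFbi+RT, and TGFbi+RT+anti-PD-L1 (called the triple group below). IPW-5371 is a small-molecule inhibitor of TGFβ signaling, given daily at 20 mg/kg, and anti-PD-L1, which blocks the checkpoint ligand encoded by Cd274, was given weekly at 10 mg/kg. Radiation was one focal dose of 10 Gy, and tumors were collected 7 days after treatment. All 15 tumors were Trp53 null mammary carcinomas grown from second-generation (F2) transplants of 1 tumor family, F, placed orthotopically into BALB/cJ females aged 8 to 10 weeks and randomized at 65 to 100 mm3. The results therefore describe 1 transplanted tumor family, whose blood vessels, fibroblasts and immune cells come at least in part from the host. The labels number the tumors of a group without saying whether each came from its own mouse, so the p-values measure the spread between these samples.

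Ionizing radiation breaks DNA. Cells with functional p53 respond by switching on p53 targets such as the cell cycle inhibitor Cdkn1a, a route that Trp53 null tumor cells lack. DNA fragments that reach the cytosol can be sensed by the cGAS-STING pathway, which leads to type I interferon and to transcription of interferon-stimulated genes. Radiation also activates latent TGFβ, a cytokine that restrains T cells and promotes matrix production, and it can change blood flow and oxygen supply, which cells read through the HIF transcription factors.

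Sequencing depth was similar in all tumors, from 11002869 to 17184023 counts assigned to genes (median 13302488). Of 27179 genes in the file, 16017 had enough counts to be tested. Mitochondrial genes took 2.24% to 6.45% of the counts in unirradiated and 2.48% to 5.27% in irradiated tumors. A pair of irradiated tumors stood apart: on the first principal component, which held 46.8% of the variance, TGFbi+RT tumor 3 and triple tumor 2 lay at 102.4 and 113.6, and the other 13 between -88.5 and 33.06. The library names carry 1 of 2 codes, whose meaning the labels do not give. All 6 unirradiated tumors, the 3 TGFbi+RT tumors and triple tumor 1 carry A2301. The 3 RT tumors and triple tumors 2 and 3 carry A2304. The effect of RT alone and the code therefore cannot be told apart, and values without the 2 outlying tumors and within A2301 are given beside the results they touch. Within A2301 no RT tumor enters, and every irradiated tumor there received the inhibitor. The triple group is then tumor 1 alone, which weighs as much in the difference as the mean of the 3 TGFbi+RT tumors. Values within A2301 therefore do not check the effect of RT alone. Where the code enters as a term, it is estimated only within the triple group, from tumor 1 against tumors 2 and 3. Triple tumor 2 is an outlying tumor, so values with the code as a term do not separate the code from radiation. The libraries of TGFbi tumor 3 and TGFbi+RT tumor 3 are marked as resubmitted. The carcinoma label was checked against epithelial markers: all 12 basal and all 15 luminal markers listed were expressed, with summed levels of 1253 to 3422 CPM (counts scaled by library size) for the basal and 244 to 559 CPM for the luminal list. Reads on Trp53 ranged from 63.9 to 110 CPM over the 15 tumors (log2 difference -0.07 ± 0.12, SE). The labels do not say which part of the gene was deleted, so these reads do not check the genotype.

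No single gene passed the test of all irradiated against all unirradiated tumors. With edgeR's quasi-likelihood test and Benjamini-Hochberg adjustment over the 16017 genes, 0 genes (0%) reached an adjusted p under 0.05, the smallest being 0.295. At an unadjusted p under 0.05 there were 1988 genes, 12.4% of those tested, of which 1363 (8.51%) were higher and 625 (3.9%) lower in irradiated tumors. Without the 2 outlying tumors, 641 of 15884 tested genes were higher and 453 lower at that threshold. Counts of list members below are to be read beside these numbers. Of the other tools, limma-voom also called 0, and DESeq2 called 341, with 294 higher and 47 lower. Each irradiated group set alone against the 6 unirradiated tumors likewise gave 0 called genes by edgeR, with 694 (RT), 1918 (TGFbi+RT) and 2340 (triple) at an unadjusted p under 0.05 and smallest adjusted p-values of 0.0808, 0.201 and 0.0805. Everything below is therefore described as measured levels and differences, with "higher" and "lower" meaning the direction in these tumors. The pooled comparison does not hold the drugs equal. Among irradiated tumors the TGFbi+RT and triple groups received the inhibitor, among unirradiated tumors the TGFbi group did, and anti-PD-L1 was given only in the triple group.

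The genes that differed in all 3 irradiated groups numbered 55. Each had the same direction and an unadjusted p under 0.05 in the RT, the TGFbi+RT and the triple group. Of these, 36 were higher (0.225% of genes tested) and 19 lower (0.119%). The 3 comparisons share the same 6 unirradiated tumors, so they do not count as 3 independent observations. DESeq2 called 38 of the 55 in the pooled comparison, and 341 over all genes tested. The 55 were chosen on the same counts, so this overlap is not a separate check of them. An average log2 CPM of 1 or more was reached by 35 of the 55, and the rest are low-count genes.

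The 19 lower genes had pooled log2 differences from -1.46 to -0.29, and Padi3, Ntrk3 and Krt5 had the smallest p-values. Padi3, a peptidylarginine deiminase that citrullinates proteins in differentiating epithelium (chr4:140785369-140810648, minus strand, GRCm38), measured 109, 104 and 60.9 CPM in the Sham tumors and 106, 101 and 67.6 CPM in the TGFbi tumors. Its levels were 49.3, 43.5 and 53.8 CPM after RT, 29.8, 40.5 and 44.8 CPM after TGFbi+RT, and 49.8, 40.5 and 17.7 CPM in the triple group. Every irradiated tumor lay below every unirradiated one. The log2 difference was -1.17 ± 0.21 (SE), with an adjusted p of 0.295 by edgeR and 0.000561 by DESeq2. By group it was -0.90, -1.25 and -1.34. The pooled difference was -1.25 without the 2 outlying tumors and -1.09 within A2301.

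Krt5, the basal-cell keratin (chr15:101707070-101712891, minus strand), measured 603, 721 and 658 CPM in Sham and 1117, 978 and 612 CPM in TGFbi tumors. After radiation it stood at 377, 418 and 351 CPM (RT), 529, 748 and 347 CPM (TGFbi+RT) and 438, 351 and 371 CPM (triple). Only TGFbi+RT tumor 2 overlapped the unirradiated range. The log2 difference was -0.84 ± 0.16 (SE), with an adjusted p of 0.295 by edgeR and 0.00162 by DESeq2. Within A2301 the difference was -0.69. Ntrk3, the receptor tyrosine kinase for neurotrophin-3 (chr7:78192114-78577838, minus strand), measured 61.5 to 66.2 CPM in Sham and 79.2 to 86.0 CPM in TGFbi tumors. In irradiated tumors the lowest, median and highest levels were 17.7, 29.2 and 69.9 CPM. TGFbi+RT tumor 2 was again the 1 tumor inside the unirradiated range. The difference for Ntrk3 was -1.14 ± 0.22 (SE), with an adjusted p of 0.295 by edgeR and 0.000815 by DESeq2. Without the 2 outlying tumors the difference was -1.06, and Ntrk3 was then the 1 gene that edgeR called over all genes (adjusted p = 0.0473). Over the 28 alternatives, tools included, the adjusted p of Padi3, Krt5 and Ntrk3 reached from 0.000561, 0.00162 and 0.000815, all by DESeq2, up to 1, with the direction kept in each.

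Gpc1, a heparan sulfate proteoglycan anchored in the cell membrane (chr1:92831686-92860196, plus strand), ranged from 77.9 to 178 CPM (median 137) in irradiated and 162 to 265 CPM (median 218) in unirradiated tumors. Its log2 difference was -0.71 ± 0.15 (SE). Crispld2, a secreted protein gene, lay at 257 to 548 CPM against 440.1 to 677 CPM, a difference of -0.67 ± 0.17 (SE), and -0.45 within A2301. Both ranges overlapped. At lower levels, Syt1, a calcium sensor of vesicle release, ranged from 1.05 to 7.87 CPM against 6.87 to 17.0 CPM (-1.46 ± 0.37, SE). Tafa5, a secreted neural cytokine-like protein, ranged from 1.19 to 5.02 CPM against 5.24 to 10.0 CPM with no overlap (-1.18 ± 0.31, SE). Klhl29, at 42.4 to 75.5 CPM against 49.3 to 104 CPM, had a difference of -0.58. The pseudogene Rpl31-ps11, at -1.03, is uncertain because its reads may come from Rpl31 or its other copies. Zfp703, a transcriptional repressor chosen after its values were seen, had a difference of -0.39.

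The higher genes included several that are known from blood cells, such as Plcg2, Atp2a3 and Btla. Plcg2, the phospholipase C downstream of B cell and myeloid receptors (chr8:117498291-117635142, plus strand), measured 16.5, 7.04 and 11.2 CPM in Sham and 14.5, 6.54 and 11.3 CPM in TGFbi tumors. It measured 28.8, 22.1 and 20.0 CPM after RT, 24.0, 18.2 and 42.7 CPM after TGFbi+RT, and 24.3, 56.7 and 26.4 CPM in the triple group. All 9 irradiated tumors lay above all 6 unirradiated ones, with the 2 outlying tumors highest. The log2 difference was 1.37 ± 0.29 (SE), with an adjusted p of 0.295 by edgeR and 0.00213 by DESeq2. The difference was 1.04 without those 2 tumors and 1.21 within A2301, and its adjusted p reached 1 in other alternatives. Atp2a3, the endoplasmic reticulum calcium pump of blood cells (chr11:72961169-72993043, plus strand), had lowest, median and highest levels of 2.24, 5.83 and 25.3 CPM in irradiated and 0.648, 1.27 and 3.87 CPM in unirradiated tumors. Its difference was 2.39 ± 0.51 (SE), and 1.91 without the 2 tumors. Btla, an inhibitory receptor of B and T cells (chr16:45224337-45252895, plus strand), ranged from 0.944 to 6.94 CPM against 0.655 to 1.86 CPM, a difference of 1.68 ± 0.36 (SE). Only TGFbi+RT tumor 2 lay inside the unirradiated range.

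Other higher genes known from lymphocytes, chosen after their values were seen, were Tnfrsf13b, the TACI receptor of B cells (0.351 to 2.11 CPM against 0.0648 to 0.298 CPM, no overlap), and Kcna3, a potassium channel of lymphocytes (0.591 to 6.47 CPM against 0 to 0.323 CPM, no overlap). Trdc, also chosen so, the constant segment of the T cell receptor delta chain, had 0 counts in 5 of 6 unirradiated tumors and 0.0703 to 6.91 CPM in irradiated ones. In bulk tumors such as these, more cells of a type and more RNA per cell cannot be told apart. Levels of this size rest on few reads. Summed over its list, T cell markers lay above the unirradiated range (15.4 to 30.7 CPM) in 4 of the 9 irradiated tumors and inside it, at 16.6 to 27.2 CPM, in the other 5, among them all 3 RT tumors. Macrophage markers lay above the unirradiated range (292 to 1432 CPM) in 4 irradiated tumors and inside it, at 417 to 1334 CPM, in the other 5. The part of such cells in these genes was not tested.

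The remaining higher genes had other functions. Cyp1b1, a cytochrome P450 that oxidizes estradiol and aryl hydrocarbons (chr17:79706953-79715041, minus strand), had lowest, median and highest levels of 69.3, 109 and 239 CPM in irradiated and 45.1, 52.7 and 95.4 CPM in unirradiated tumors. TGFbi tumor 3, at 95.4 CPM, lay above 3 irradiated tumors. The difference of 1.32 ± 0.34 (SE) was 0.83 without the 2 outlying tumors and 0.74 within A2301. Celf2, an RNA-binding splicing regulator, ranged from 23.8 to 108 CPM against 9.50 to 35.3 CPM (1.41 ± 0.37, SE). Chil1, a secreted chitinase-like protein, ranged from 0.865 to 5.70 CPM against 0.246 to 1.43 CPM (1.94 ± 0.48, SE). Tnfrsf11a, the receptor RANK, chosen after its values were seen, ranged from 10.9 to 46.9 CPM against 3.52 to 14.0 CPM (1.30 ± 0.38, SE). Ppfia4 (1.64 ± 0.44, SE), Gad1 (2.41 ± 0.61, SE), Sox11 (1.84 ± 0.57, SE) and Clca3a1 (3.32 ± 0.78, SE) were also higher in all 3 groups. Gad1 was at 1.35 within A2301.

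**Figure D1:**
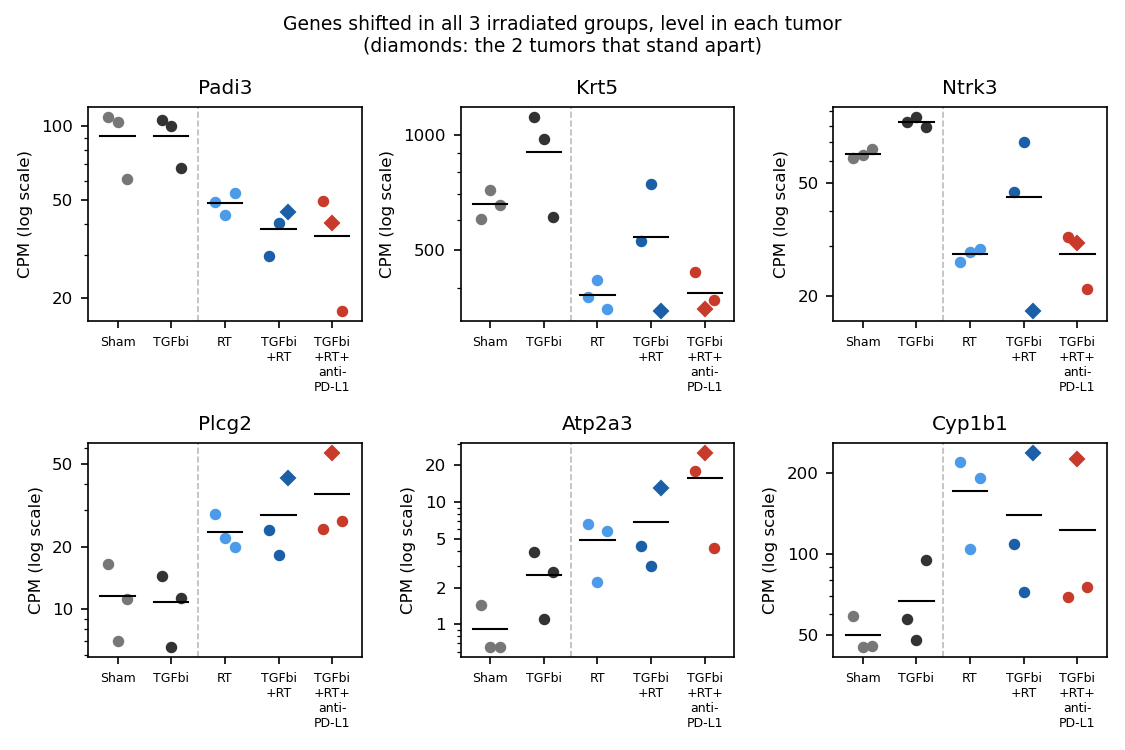
Level of 6 genes in each tumor, in CPM on a log axis, by group; dots are tumors, diamonds TGFbi+RT tumor 3 and triple tumor 2, black lines group means, and the dashed line divides unirradiated from irradiated groups. Padi3 and Plcg2 do not overlap across the line, while 1 TGFbi+RT tumor reaches the unirradiated range of Krt5 and Ntrk3, at 748 and 69.9 CPM.

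Membership of the 55-gene set moved with the libraries used. Leaving out 1 tumor at a time, in 15 fits, kept 3 genes every time: Padi3, Plcg2 and Nr1i3, the nuclear receptor CAR, which was chosen after its values were seen and measured only 0.171 to 0.934 CPM in irradiated tumors. Hif3a, a HIF-family member, dropped out without RT tumor 3, and Tnfrsf13b without RT tumor 1. Btla, Chil1, Clca3a1, Cyp1b1 and the phosphoesterase gene Tmppe were kept in 13 fits, Ntrk3 in 9, Krt5 in 6 and Ddit4 in 2. With the library code as a term, 7 of the 55 stayed, among them Btla, Tafa5 and Ddit4. Without the 2 outlying tumors 18 stayed, among them Padi3, Plcg2, Btla and Gpc1.

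Complete separation of the 9 irradiated from the 6 unirradiated tumors was seen for 20 genes, of which 10 also belonged to the 55. All irradiated tumors were above all unirradiated ones for 9 genes (0.0562% of those tested) and below for 11 (0.0687%). Several of the lower ones were abundant. Col4a1, a chain of basement membrane collagen (chr8:11198423-11312826, minus strand), had lowest, median and highest levels of 1909, 2674 and 3245 CPM in irradiated and 3291, 3670 and 4440 CPM in unirradiated tumors, a log2 difference of -0.51 ± 0.11 (SE). Fat2, a large protocadherin of squamous and basal epithelium (chr11:55250610-55312257, minus strand), measured 298, 567 and 614 CPM against 616, 684 and 775 CPM (-0.44 ± 0.15, SE). For Fat2 the gap between the groups was under 2 CPM, so the separation is narrow. Lgalsl and the kinase gene Tnk2 were lower by a similar amount, at -0.43 and -0.42. These 4 genes were chosen after their values were seen.

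Among the other completely separated genes, Fdxr, the mitochondrial ferredoxin reductase, ranged from 5.04 to 7.86 CPM against 8.02 to 12.9 CPM (-0.40). Hacl1, a peroxisomal lyase of fatty acid oxidation, ranged from 6.32 to 10.3 CPM against 10.8 to 13.8 CPM (-0.53). Spata7 differed by -0.38 and Zfp644 by -0.14 ± 0.06 (SE), with 96.5 to 109 CPM against 112 to 117 CPM. Tmppe ranged from 25.2 to 38.7 CPM against 20.1 to 24.1 CPM, a difference of 0.44 ± 0.10 (SE). The transcript A930015D03Rik ranged from 3.80 to 13.7 CPM against 2.11 to 3.75 CPM (1.02 ± 0.31, SE). Fdxr is also known as a p53 target.

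Interferon-stimulated genes were higher in irradiated tumors as a group, although none of them is among the 55 or the 20. All 29 type I interferon response genes were higher at an unadjusted p under 0.05, where 8.51% of all genes were, and their median log2 difference was 2.19 against 0.01 for all genes. The median was 0.80 after RT, 2.86 after TGFbi+RT and 2.92 in the triple group. Without the 2 outlying tumors it was 1.16, with 24 of 29 still higher at that threshold. It was 1.90 within A2301 and 0.80 with the code as a term. The promoters of 2 genes of this group, each the 250 bases before the transcription start (RefSeq, GRCm38.p6), show how the letters read by interferon-activated factors appear. Capitals mark a match to GAAANNGAAA, searched on both strands.
Oas3 promoter, chr5:120777660-120777909, minus strand: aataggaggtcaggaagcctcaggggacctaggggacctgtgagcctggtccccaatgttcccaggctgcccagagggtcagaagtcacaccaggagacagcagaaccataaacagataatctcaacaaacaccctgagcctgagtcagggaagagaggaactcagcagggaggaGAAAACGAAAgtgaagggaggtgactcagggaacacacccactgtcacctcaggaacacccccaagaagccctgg
Trim30a promoter, chr7:104465194-104465443, minus strand: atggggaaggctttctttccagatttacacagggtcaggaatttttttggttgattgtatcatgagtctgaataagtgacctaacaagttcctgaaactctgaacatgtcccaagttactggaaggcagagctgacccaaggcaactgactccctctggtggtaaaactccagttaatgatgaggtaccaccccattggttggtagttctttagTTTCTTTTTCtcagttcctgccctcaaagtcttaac
The Trim30a match is on the opposite strand, so it appears as the reverse complement. Of the 21 listed genes with a promoter in the table, 10 (47.6%) hold this motif, against 397 of 11957 tested genes (3.32%). Among the 55 genes, 1 of 27 higher and 0 of 13 lower ones with a promoter hold it. A match describes letters in this window and does not show that a factor binds there.

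Oas3, which makes the 2-5A messenger that activates RNase L, measured 1.43, 0.164 and 0.908 CPM in Sham and 2.64, 0.797 and 3.07 CPM in TGFbi tumors. It measured 6.61, 1.63 and 1.48 CPM after RT, 17.4, 11.2 and 69.7 CPM after TGFbi+RT, and 5.20, 102 and 11.5 CPM in the triple group. RT tumors 2 and 3 lay inside the unirradiated range, and the other 7 irradiated tumors above it. The difference was 3.56 ± 0.81 (SE), and 2.39 without the 2 outlying tumors. Oas2, of the same family, ranged from 2.04 to 94.3 CPM against 0.491 to 5.74 CPM (2.89 ± 0.65, SE). Trim30a, an interferon-inducible ubiquitin ligase family member chosen after its values were seen, ranged from 3.65 to 107 CPM against 1.15 to 11.9 CPM (2.59 ± 0.64, SE). Within A2301 these 3 genes differed by 3.22, 2.71 and 2.44, and with the code as a term by 1.43, 1.23 and 1.26. In the median over the list per tumor, the 9 irradiated tumors ranged from 0.33 to 4.39 on a centered log2 scale and the 6 unirradiated from -1.27 to 0.63. Only RT tumors 2 and 3 overlapped.

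Genes driven by interferon gamma, and MHC genes, had higher medians in the TGFbi+RT and triple groups than after RT alone, a difference between groups that was not tested for lists. Of 27 interferon gamma and MHC class I genes, 20 were higher at an unadjusted p under 0.05 and 0 lower, with medians of 0.23 after RT, 2.35 after TGFbi+RT and 2.30 in the triple group. The pooled median of 1.74 was 0.47 without the 2 outlying tumors, with 7 of 27 higher at that threshold, and 0.55 with the code as a term. It was 1.06 without TGFbi+RT tumor 3 alone and 1.12 without triple tumor 2 alone. Iigp1, an interferon gamma-inducible GTPase, ranged from 2.18 to 616 CPM against 0.737 to 8.08 CPM (3.82 ± 1.10, SE), and differed by 1.54 without those tumors. All 8 MHC class II genes tested were higher at that threshold, with a median of 3.06, of 1.82 without the 2 tumors (still 8 of 8) and of 1.58 with the code as a term. H2-Aa, the class II alpha chain, measured 3.10, 0.901 and 1.30 CPM in Sham and 8.88, 3.75 and 15.8 CPM in TGFbi tumors. It measured 13.2, 7.40 and 3.58 CPM after RT, 28.7, 14.2 and 159 CPM after TGFbi+RT, and 31.8, 381 and 14.9 CPM in the triple group. The RT tumors all lay within the unirradiated range, and so did TGFbi+RT tumor 2 (14.2 CPM) and triple tumor 3 (14.9 CPM). The difference of 3.37 ± 0.84 (SE) was 1.94 without the 2 outlying tumors.

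T cell and cytotoxic genes also had their lowest median after RT. Of 12 T cell markers 9, and of 7 tested cytotoxic effector genes 6, were higher at an unadjusted p under 0.05, with 0 lower in either list. The T cell median was 0.77 after RT, 3.53 after TGFbi+RT and 4.92 in the triple group. Pooled, it was 3.12, against 1.28 without the 2 outlying tumors, when 4 of the 9 markers tested were higher, and 3.03 with the code as a term. The cytotoxic median was 4.93, against 2.83 without those tumors, when 7 of 7 were higher, and 2.52 with the code as a term. Cd6, a T cell surface receptor, was at 0 to 0.179 CPM in all 6 unirradiated tumors. It measured 0.561, 0.136 and 0.0703 CPM after RT, 0.893, 0.551 and 4.09 CPM after TGFbi+RT, and 6.54, 13.4 and 0.338 CPM in the triple group. RT tumors 2 and 3 lay inside the unirradiated range. The Cd6 difference was 3.83 ± 0.97 (SE), 3.05 without the 2 outlying tumors and 5.01 within A2301. Cd2 differed by 3.56 ± 0.92 (SE), the killer-cell receptor Klrk1 by 3.66 ± 1.09 (SE) and the protease gene Ctsw by 1.36 ± 0.37 (SE). Without the 2 outlying tumors these were 2.64, 1.73 and 0.86. Unirradiated tumors had only 8 reads each on Cd2 and Cd6 in all, so these differences rest on very low controls. Summed over the list, the irradiated tumors reached up to 192 CPM of T cell markers.

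Myeloid, complement and chemokine genes had higher pooled levels in irradiated tumors, with smaller differences without the 2 outlying tumors. Of 14 macrophage markers (median 1.37), 9 were higher at an unadjusted p under 0.05, where 8.51% of all genes were. Without the 2 outlying tumors (median 0.71), 0 of 14 were higher, where 641 of 15884 tested genes were. With the library code as a term the macrophage median turned to -0.04. Adgre1, the F4/80 antigen, lay at 15.1 to 372 CPM against 8.52 to 50.6 CPM, and the complement gene C1qc at 26.1 to 414 CPM against 18.1 to 71.1 CPM. Without the 2 tumors they differed by 0.91 and 0.74, and with the code as a term the Adgre1 difference was -0.07. Of 16 complement genes 10 were higher (median 1.49), and 3 without the 2 tumors (median 0.73). The complement median was 0.12 with the code as a term. Cfb differed by 2.25 ± 0.54 (SE) and C3 by 2.76 ± 0.91 (SE), against 1.35 and 1.28 without the 2 tumors. Without TGFbi+RT tumor 3 alone C3 was at 1.80.

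Of 18 inflammatory chemokines (median 1.30), 9 were higher at an unadjusted p under 0.05, where 8.51% of all genes were. Without the 2 outlying tumors (median 0.86), 3 were higher, where 641 of 15884 tested genes were. The chemokine median was 0.82 without RT tumor 1 alone, and turned to -0.06 with the code as a term. Ccl8 differed by 2.65 ± 0.79 (SE) and the dendritic cell chemokine Ccl22 by 2.93 ± 0.82 (SE), against 1.58 and 1.99 without the 2 tumors. Of 10 dendritic cell markers 7 were higher (median 1.87), and 5 without the 2 tumors (median 1.23). Here the median was 1.32 with the code as a term. The migration receptor gene Ccr7 differed by 2.12 ± 0.50 (SE) and Flt3 by 2.39 ± 0.60 (SE). Of 17 cytosolic DNA sensing genes 8 were higher (median 0.55), and 6 without the 2 tumors (median 0.21). This median was 0.33 without triple tumor 2 alone and 0.15 with the code as a term. The nucleic acid sensor genes Zbp1 and Ifi205 differed by 3.14 ± 0.80 (SE) and 2.71 ± 0.69 (SE), against 1.84 and 2.07 without the 2 tumors. Zbp1 is also in the type I interferon list, and members of the DNA sensing list ranged from -0.22 to 3.14. No gene of the macrophage, complement, chemokine, dendritic cell and DNA sensing lists was lower at that threshold.

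Checkpoint genes depended on few tumors. Cd274, which encodes PD-L1, measured 7.52, 2.62 and 3.96 CPM in Sham and 7.21, 2.87 and 5.58 CPM in TGFbi tumors. TGFbi+RT tumor 3 and triple tumor 2 reached 185 and 123 CPM, and the other 7 irradiated tumors lay between 2.39 and 11.2 CPM. The log2 difference of 2.18 ± 0.83 (SE) became 0.42 without these 2 tumors. Of the 16 checkpoint ligands and receptors tested (median 1.54), 5 were higher at an unadjusted p under 0.05, where 8.51% of all genes were. Without the 2 tumors (median 0.38), 1 of 14 was higher, where 641 of 15884 tested genes were. The median was 0.80 without triple tumor 2 alone and 0.24 with the code as a term. It was 0.75 when RT and TGFbi+RT alone were set against Sham and TGFbi, which balances the inhibitor.

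**Figure D2:**
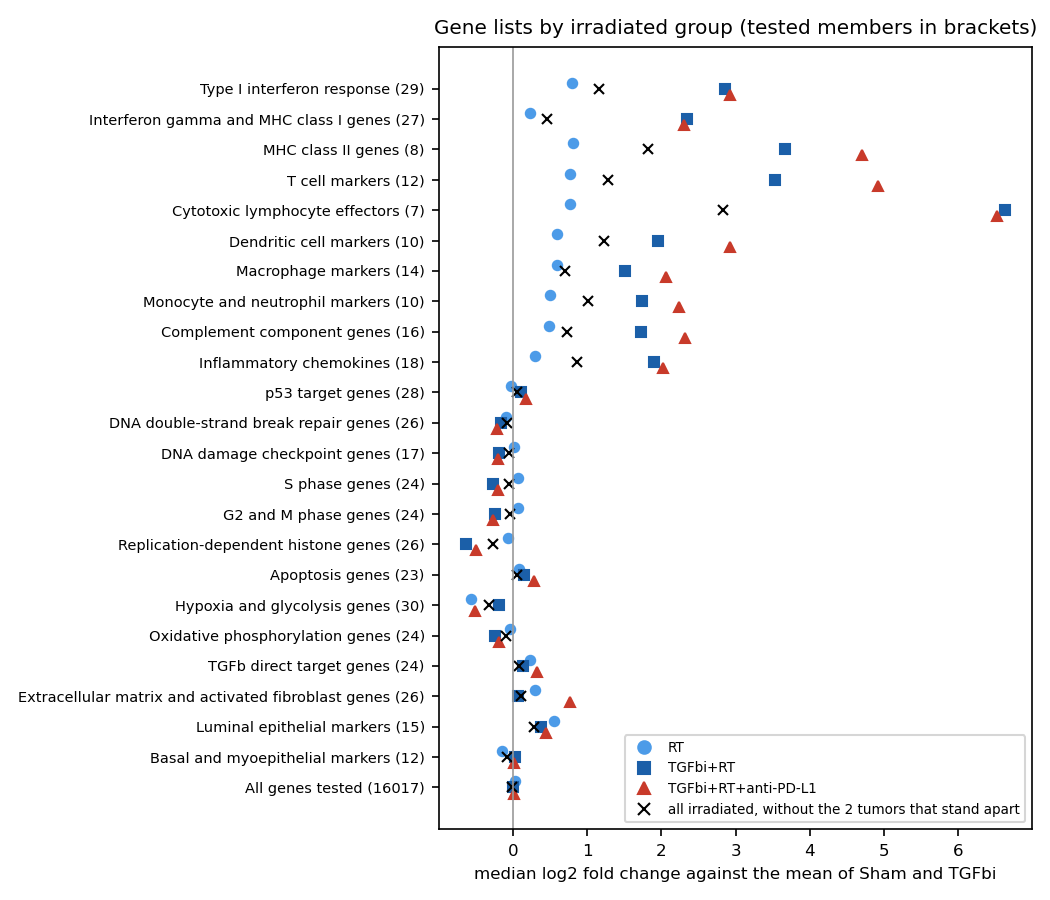
Median log2 difference of each gene list in RT (circles), TGFbi+RT (squares) and triple tumors (triangles) against the mean of Sham and TGFbi, with the number of members tested in brackets; crosses give all irradiated tumors without the 2 that stand apart. The type I interferon list lies at 0.80, 2.86 and 2.92 and the hypoxia list at -0.57, -0.18 and -0.51, while all genes lie near 0.

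Hypoxia and glycolysis genes were lower. Of 30 genes, 11 were lower at an unadjusted p under 0.05, where 3.9% of all genes were, 0 were higher, and 29 of 30 had a difference below 0. The median was -0.41 over all irradiated tumors, -0.31 without the 2 outlying ones (12 of 30 lower), -0.46 within A2301 and -0.57 with the code as a term. By group it was -0.57 after RT, -0.18 after TGFbi+RT and -0.51 in the triple group. Against the unirradiated group with the same inhibitor status, it was -0.72 for RT minus Sham, 0.03 for TGFbi+RT minus TGFbi and -0.31 for the triple group minus TGFbi. Capitals below mark ACGTG or GCGTG, the core letters of the hypoxia response element, searched on both strands of the 250 bases before the transcription start of the glucose transporter gene Slc2a1 and of Ddit4 (RefSeq, GRCm38.p6).
Slc2a1 promoter, chr4:119108495-119108744, plus strand: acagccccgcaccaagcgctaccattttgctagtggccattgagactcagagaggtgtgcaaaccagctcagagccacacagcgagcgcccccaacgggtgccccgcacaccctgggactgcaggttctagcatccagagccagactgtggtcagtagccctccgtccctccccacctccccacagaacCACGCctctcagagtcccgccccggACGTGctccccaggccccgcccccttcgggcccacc
Ddit4 promoter, chr10:59951771-59952020, minus strand: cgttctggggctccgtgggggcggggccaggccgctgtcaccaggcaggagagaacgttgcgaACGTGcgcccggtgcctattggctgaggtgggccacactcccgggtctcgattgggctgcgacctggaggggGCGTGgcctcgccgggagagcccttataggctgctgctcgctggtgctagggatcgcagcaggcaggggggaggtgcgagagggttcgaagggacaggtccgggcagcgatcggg
Of the 2 matches in Slc2a1, 1 is on the opposite strand. The core occurs in 28 of 29 listed genes with a promoter (96.6%) and in 6986 of 11957 tested genes (58.4%), so it is common in any such window. Among the 55 genes it occurs in 21 of 27 higher and 8 of 13 lower ones.

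Slc2a1 (GLUT1) measured 269, 190.4 and 145 CPM in Sham and 151, 187 and 174 CPM in TGFbi tumors. It measured 73.8, 79.0 and 82.8 CPM after RT, 128, 228 and 134 CPM after TGFbi+RT, and 81.5, 56.7 and 169 CPM in the triple group. All 3 RT tumors lay well below every unirradiated tumor, whereas TGFbi+RT tumor 2 and triple tumor 3 lay within their range. The difference was -0.76 ± 0.22 (SE) and -0.70 within A2301. Ddit4, a stress-induced inhibitor of mTORC1 (chr10:59949675-59951770, minus strand), is the 1 hypoxia gene among the 55. It measured 195, 134 and 198 CPM in Sham and 114, 123 and 114 CPM in TGFbi tumors. After radiation the 9 tumors ranged from 55.5 to 154 CPM, with only triple tumor 3 inside the unirradiated range. Its difference was -0.61 ± 0.18 (SE). Of HIF and VEGF regulators, Pgf, the placental growth factor, lay at 12.8 to 24.6 CPM against 18.5 to 56.1 CPM (-0.78 ± 0.23, SE), and Hif3a at 0.236 to 1.27 CPM against 0.0597 to 0.264 CPM (1.98 ± 0.46, SE). The hypoxia-inducible repressor Bhlhe40 differed by -0.41.

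**Figure D3:**
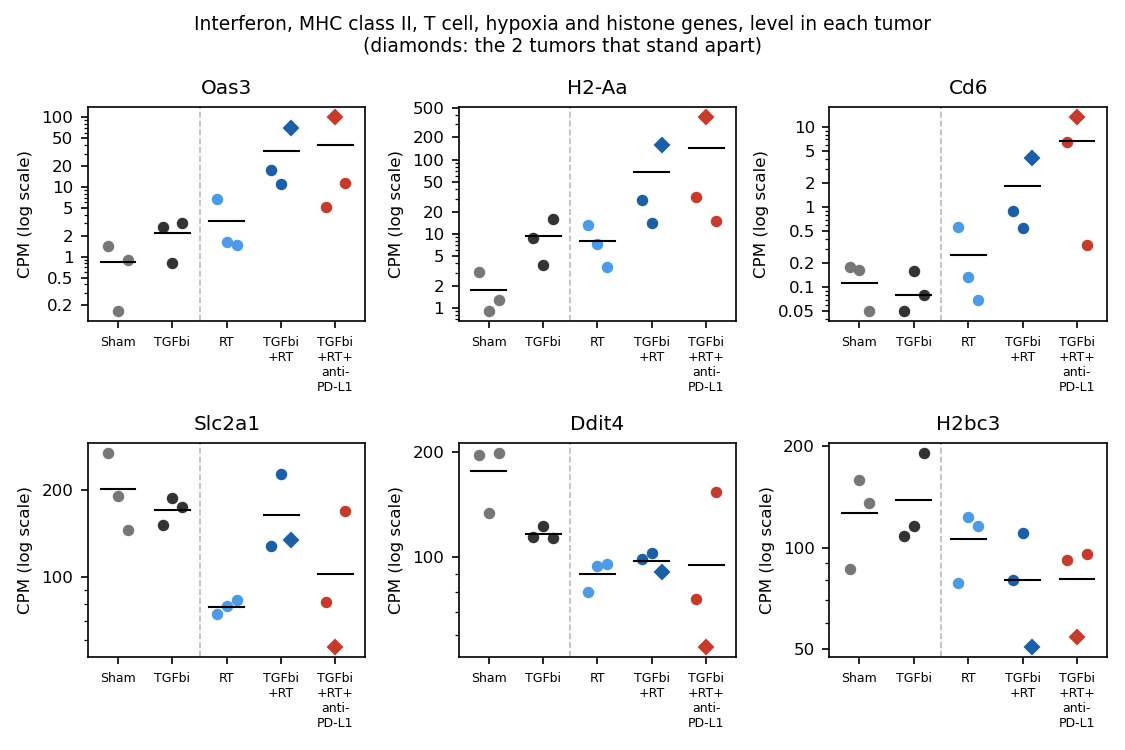
Level of 6 list genes in each tumor, in CPM on a log axis (values under 0.05 CPM are drawn at 0.05), with symbols as in the plot of Padi3 and Plcg2. Oas3 and H2-Aa are highest in the 2 tumors drawn as diamonds, Cd6 is highest in triple tumors 2 and 1 (13.4 and 6.54 CPM), and the 3 RT tumors have Slc2a1 between 73.8 and 82.8 CPM, below all 6 unirradiated tumors.

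The canonical DNA damage lists had small median differences at day 7. Of 28 p53 target genes, 5 were higher at an unadjusted p under 0.05, where 8.51% of all genes were. None were lower, and the median of the list was 0.10. Without the 2 outlying tumors 0 of 28 passed, where 641 of 15884 tested genes were higher and 453 lower. Cdkn1a (p21) ranged from 14.9 to 125 CPM against 12.1 to 39.1 CPM, with the 2 outlying tumors at 95.1 and 125 CPM and the other 7 at or below 40.5 CPM. Its difference of 0.84 ± 0.44 (SE) was 0.28 without them and -0.30 with the library code as a term. Mdm2, the p53 ubiquitin ligase, was at -0.15 ± 0.11 (SE) and at 0.06 with the code as a term. Higher members included the death receptor gene Eda2r at 1.78 ± 0.60 (SE) and Bbc3, which encodes PUMA, at 0.63 ± 0.25 (SE). Of 26 double-strand break repair genes, 0 were higher and 2 lower, where 3.9% of all genes were lower. The 2 were Rbbp8, the end-resection factor CtIP (-0.64 ± 0.15, SE), and Rad50 of the MRN complex (-0.20 ± 0.09, SE). Of 17 DNA damage checkpoint genes none passed that threshold in either direction (median -0.16), and the same held for 24 S phase genes (median -0.12) and 24 G2 and M phase genes (median -0.13). With the code as a term the medians of the repair, checkpoint, S phase and G2 and M phase lists were 0.07, 0.10, 0.17 and 0.15, on the other side of 0. Cdc20, the mitotic activator, was at -0.34 ± 0.18 (SE).

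Replication-dependent histone genes, which are transcribed during DNA synthesis, were below the unirradiated mean for 26 of 26 members. At an unadjusted p under 0.05, where 3.9% of all genes were lower, 6 of them were. The median was -0.40 (-0.06 after RT, -0.63 after TGFbi+RT and -0.49 in the triple group), -0.26 without the 2 outlying tumors and -0.15 with the code as a term. H2bc3 lay at 50.7 to 123 CPM in irradiated and 86.4 to 191 CPM in unirradiated tumors, overlapping widely (-0.59 ± 0.21, SE), and H4c1 differed by -0.42 ± 0.17 (SE). Histone genes are near-identical copies, so reads may be shared between them. H2bc21, a histone gene whose transcript can be polyadenylated, was higher in all 3 groups (1.34 ± 0.35, SE) and was chosen after its values were seen. Of 23 apoptosis genes, 5 were higher and 1 lower at that threshold, against 8.51% and 3.9% of all genes. The higher ones included the survival genes Bcl2 (28.2 to 51.6 CPM against 27.5 to 37.5 CPM, 0.38 ± 0.13, SE) and Bcl2l1 (29.6 to 66.9 CPM against 26.6 to 42.4 CPM, 0.51 ± 0.18, SE).

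TGFβ pathway lists had medians near 0. Of 24 direct TGFβ targets, 20 were above 0 and 4 below, with 1 higher at an unadjusted p under 0.05, Tgfbi (8.29 to 88.5 CPM against 5.57 to 25.7 CPM, 1.52 ± 0.45, SE), and 1 lower. Their median of 0.20 was 0.51 without Sham tumor 1, 0.06 without Sham tumor 2, -0.13 within A2301 and -0.22 with the code as a term. Of 17 ligands, receptors and activators, 11 were above 0 and 6 below (median 0.10, and -0.11 with the code as a term), with 0 higher and 1 lower at that threshold: Tgfbr3, the co-receptor betaglycan (154 to 330.1 CPM against 253 to 446 CPM, -0.62 ± 0.16, SE). Tgfb1 itself ranged from 36.3 to 117 CPM against 27.0 to 66.8 CPM (0.49 ± 0.30, SE), and was at -0.12 with the code as a term. Matrix and activated fibroblast genes held 0 of 26 at the threshold, with 24 of 26 above 0 (median 0.40). That median was 1.33 without Sham tumor 1, -0.09 without RT tumor 1, -0.32 within A2301 and -0.70 with the code as a term. Of the epithelial lists, 2 of 12 basal markers were lower: Krt5, above, and Trp63, the p63 regulator of basal cells (292 to 696 CPM against 550 to 1003 CPM, -0.49 ± 0.21, SE). The basal median was nevertheless -0.01, and moved between -0.17 (without RT tumor 1) and 0.41 (without TGFbi tumor 1). Snai2, a transcription factor of basal mammary cells and of epithelial-mesenchymal transition, ranged from 89.8 to 189 CPM against 170 to 255 CPM (-0.56 ± 0.15, SE). Of 15 luminal markers 2 were higher, among them Elf5, a regulator of alveolar differentiation, at 0.85 ± 0.35 (SE).

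Radiation could also be compared without and with the inhibitor, in tumors that the 2 contrasts do not share. RT minus Sham and TGFbi+RT minus TGFbi correlated across the 16017 genes with a Pearson r of 0.358 and a Spearman rho of 0.209, given as a description because genes are not independent replicates. All 3 RT tumors carry A2304 and the other 9 tumors A2301. The difference between the contrasts, tested as an interaction, gave 0 called genes by edgeR (0%; smallest adjusted p of 1), with 608 at an unadjusted p under 0.05, and DESeq2 called 3. The type I interferon median was 0.82 without and 2.76 with the inhibitor, and the hypoxia median -0.72 and 0.03. For single genes, Slc2a1 was at -1.36 without and -0.06 with the inhibitor, Ddit4 at -0.97 and -0.26, Padi3 at -0.90 and -1.25, and Oas3 at 1.91 and 3.91. None of these 4 differences between contrasts passed the adjusted test.

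**Figure D4:**
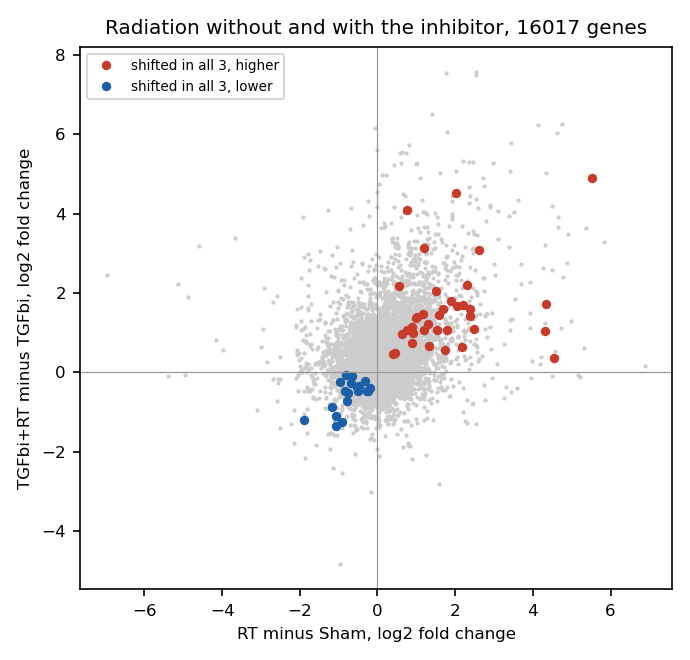
Log2 difference of RT minus Sham (x axis) against TGFbi+RT minus TGFbi (y axis) for 16017 genes, with the 55 genes that differed in all 3 irradiated groups in color. Pearson's r across genes is 0.358; the colored genes lie mostly in the upper right and lower left because their choice fixed their direction.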

How the data were processed

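RNA-seq was made from frozen tumors after ribosomal RNA depletion, per the labels' protocols. The authors deposited raw counts per Entrez gene, 1 column per library; the column names mention Subread BAM files, per the file headers, and the build is GRCm38, per the submitters' processing notes. Counter settings, strand and annotation release are not given in the sources used here, so overlapping and antisense genes cannot be separated. The deposited annotation table gives gene lengths and coordinates, and columns were matched to tumors by the labels' descriptions.

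Counts were filtered with filterByExpr and scaled by TMM (factors 0.919 to 1.05). One edgeR 4.0.16 quasi-likelihood model (R 4.3.3) held the 5 groups as separate terms (common biological coefficient of variation 0.364, 10 residual degrees of freedom). The pooled contrast was the mean of the 3 irradiated groups minus the mean of Sham and TGFbi, and each irradiated group was set against that same mean. Log2 fold changes have standard errors from the model, and CPM values are scaled by TMM library sizes. p-values were adjusted by Benjamini-Hochberg over 16017 genes, of which 15483 had a symbol. Sampling noise differed from replicate spread in every pair (within-group Spearman 0.923 to 0.988), so no library was counted as a duplicate. The steps were tested on simulated counts. Alternatives were DESeq2 1.42.0, limma-voom (limma 3.58.1), other scaling and filters, a replicate block, the library code as a term, A2301 libraries only, and leaving out tumors. Further alternatives were a model of 2 groups only and one of additive terms for radiation, inhibitor and anti-PD-L1. An inhibitor-balanced contrast set the mean of RT and TGFbi+RT against the mean of Sham and TGFbi.

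The comparison, its members and the 44 gene lists (728 of 765 listed entries tested) were chosen with earlier results of these data known. Named genes were up to 10 per direction of the 55 with the largest smallest difference, and up to 6 per direction of the non-overlapping genes with the widest gap. For both, an average log2 CPM of at least 1 was required. Up to 2 genes per list with the smallest unadjusted p were named without that minimum, as were Trp53, Cdkn1a, Mdm2, Cd274 and Tgfb1. Others are said to be chosen after their values were seen. A list's median is over its tested members. Promoter windows came from RefSeq.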

Additional observations from a re-analysis of the deposited data

Results flagged for a closer look

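Among 274 groups of values (93 genes and 44 list scores, in the 9 irradiated and the 6 unirradiated tumors), 19 held 1 tumor far from the others by Dixon's criterion on log2 values, where chance gives about 1 in 20 groups. Triple tumor 2 accounted for 6 of them: Ppfia4 at 18.66 CPM (next 5.30), Bbc3 at 7.218 CPM (next 3.74), the checkpoint receptor gene Pdcd1 at 7.218 CPM (next 0.768), the p53 target score at 0.505 (next 0.186) and the Schwann and nerve score at 0.294 were highest of the irradiated tumors, and Fdxr at 5.039 CPM (next 6.47) was lowest. TGFbi+RT tumor 1 had the highest skeletal muscle score, 0.925 (next 0.221).

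In the unirradiated tumors, TGFbi tumor 3 was highest for Cyp1b1 at 95.44 CPM (next 59.0), for the monocyte gene Ly6c2 at 0.9697 CPM (next 0.239) and for Trdc at 0.2424 CPM (others 0). TGFbi tumor 1 was highest for the adipocyte gene Plin1 at 12.22 CPM (next 0.319) and the Schwann and nerve score at 0.683 (next 0.0976), and TGFbi tumor 2 for Fdxr at 12.92 CPM (next 9.40). Sham tumor 1 was lowest for the primase gene Prim1 at 20.46 CPM (next 28.4) and the S phase score at -0.45 (next 0.0335), and highest for the TGFβ direct target score at 1.1 (next 0.0346). Sham tumor 2 was highest for Cdc20 at 191.9 CPM (next 123) and lowest for the B cell score at -1.46 (next -0.0332). Sham tumor 3 was highest for Spata7 at 8.559 CPM (next 7.53).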

How the results depend on the processing

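The pooled count of 0 called genes became 341 with DESeq2 and 1 without the 2 outlying tumors, and 0 to 1 when 1 tumor was left out (1 without TGFbi+RT tumor 3); the 1 gene was Ntrk3 each time. The interaction gave 3 genes with DESeq2. The count of genes that differed in all 3 groups went from 55 to 21 with the library code as a term (7 shared) and 36 without the resubmitted libraries (17 shared). Leaving out 1 tumor gave 28 to 169: 169 without Sham tumor 1, 104 without TGFbi tumor 1, 89 without TGFbi+RT tumor 2, and 28 without RT tumor 1 or TGFbi+RT tumor 3. The count of non-overlapping genes went from 20 to 392 in A2301 libraries only, where fewer irradiated tumors must separate, and 48 without the resubmitted libraries. It was 19 to 61 with 1 tumor left out (61 without Sham tumor 1, 59 and 55 without TGFbi tumors 1 and 3, 55 without TGFbi+RT tumor 2, 40 and 39 without RT tumors 3 and 2, 31 without TGFbi tumor 2 or triple tumor 3). Same-numbered tumors did not deviate together (mean r of -0.0297 over 30 pairs, 5 of 15 tumors closest to their own number), and with the replicate block 0 genes were called and 47 differed in all 3 groups (37 shared). The main fit called 0 genes, so a gene's value under another setting could keep or gain a call but not lose one. A kept call therefore says nothing about size: Cd274 was at 2.18 in the main fit and 0.007 with the code as a term. Of 2593 values for 93 genes under 28 settings, 2534 kept direction and call in this sense, 53 newly passed the threshold and 6 reversed. With the code as a term these were Cdkn1a (-0.30), Mdm2 (0.057), Tgfb1 (-0.12), Adgre1 (-0.072) and the matrix protease gene Mmp2 (-0.25), and without the 2 outlying tumors Trp53 (0.017). Of 1231 list medians 36 moved by more than their spread. The sign of the median turned for 21 of 44 lists with the code as a term, 9 within A2301, 7 without RT tumor 1, 6 without the 2 outlying tumors and 0 to 3 under each other alternative. Those of the type I interferon, interferon gamma, MHC, T cell, cytotoxic and hypoxia lists kept their sign in every alternative run. Other lists did so too, among them the luminal, adipocyte, skeletal muscle, Schwann and nerve, and oxidative phosphorylation lists. In the inhibitor-balanced contrast, the type I interferon, MHC class II and T cell medians were 1.86, 2.24 and 2.23, against 2.19, 3.06 and 3.12 in the main fit. The cytotoxic and hypoxia medians were 4.13 and -0.37 in that contrast, against 4.93 and -0.41. The cause of these shifts was not tested, except where fewer tumors enter. Shifts with the code as a term rest on triple tumor 1 against triple tumors 2 and 3, of which tumor 2 is outlying.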

Other observations

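Several gene groups not described above were also measured. Over all genes tested, 8.51% were higher at an unadjusted p under 0.05, and 641 of 15884 without the 2 outlying tumors. Of 10 monocyte and neutrophil genes tested 6 were higher in irradiated tumors at an unadjusted p under 0.05 (median 1.51, and 0.36 with the code as a term), with Ly6c2, a marker of inflammatory monocytes, at 0.339 to 28.7 CPM against 0 to 0.970 CPM. Of 7 mast cell markers 5 were higher (median 1.62, and 0.91 without RT tumor 1), among them the mast cell protease gene Mcpt4 at 0 to 2.18 CPM against 0 to 0.704 CPM. Of 17 NF-kB response genes 6 were higher (median 0.58), and 0 without the 2 outlying tumors (median 0.12). That median was 0.30 without triple tumor 2, 0.37 without TGFbi+RT tumor 3 and -0.01 with the code as a term. Of 10 B cell and plasma cell markers only 2 had enough counts to be tested. Among them, the B cell surface marker gene Cd22 lay at 1.48 to 59.5 CPM against 0.737 to 5.07 CPM (2.12 ± 0.66, SE).

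Energy and stress genes differed less. Of 24 oxidative phosphorylation genes 1 was lower, the ATP synthase subunit gene Atp5a1 (-0.25 ± 0.10, SE), and 23 were below 0 (median -0.14). No oxidative stress and NRF2 target gene of 21 passed that threshold. The immediate early gene Fos lay at 6.53 to 90.8 CPM against 3.77 to 24.8 CPM (1.35 ± 0.52, SE). No endothelial marker of 12 passed. Their median of 0.22 was 0.67 without Sham tumor 1, -0.07 without RT tumor 1, -0.05 without the 2 outlying tumors and -0.47 with the code as a term. Vwf, the von Willebrand factor gene, differed by 1.39 ± 0.81 (SE), by 0.71 to 1.98 with 1 tumor left out, by 0.40 without the 2 outlying tumors and by 0.19 with the code as a term. Adipocyte markers had a median of 1.50 with 1 of 12 higher and 1 lower, but that median was 0.57 without RT tumor 1 and 3.01 without TGFbi tumor 1. Their summed level spanned 50.8 to 417 CPM in unirradiated and 63.8 to 446 CPM in irradiated tumors.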
